A study of Mus musculus with 8 samples.

Results

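The genes described here are 37 genes of the pancreatic acinar cell, the exocrine cell that makes digestive enzymes, measured as RNA in isolated mouse islets. They were chosen by symbol from the 53012 genes of the count table, as a measure of the exocrine RNA carried in each islet preparation, and all 37 were found once and had enough counts to be tested. They comprise 6 trypsinogens, 6 chymotrypsins and elastases, 2 carboxypeptidases, 5 lipases and their cofactor, 3 amylase and ribonuclease genes, 7 zymogen granule and other secreted proteins, 4 genes of the endoplasmic reticulum, export and metabolism, and 4 transcription factors.

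Bulk RNA-seq was performed on islets of 4 βIgf1r (CTRL) and 4 βIgf1rKD (KD) mice at an age of 17 months, each animal giving its own library. All mice carried Igf1r flox/flox, in which exon 3 of the IGF-1 receptor gene is floxed. KD mice were also Ins1-CreERT2+/- and received 5 tamoxifen injections of 0.075 mg/g, while CTRL mice were Ins1-CreERT2-/- and received the corn oil vehicle, so the Cre driver, tamoxifen and the receptor deletion cannot be told apart in this comparison. Islets were collected 7 days after the last injection by collagenase digestion, a wire mesh and a density gradient. The methods describe the Cre as driven by a rat insulin promoter, which is active in β-cells and not in acinar cells. The methods state that each group included both sexes, while the labels mark no sex per mouse. The mice are named here by their numbers: M148, M151, M152 and M153 are CTRL, and M145, M146, M149 and M150 are KD.

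Acinar cells make up most of the pancreas and surround the islets, so that an islet preparation carries a variable number of them. They store digestive enzymes as inactive zymogens in secretory granules and release them into the ducts on a meal. The transcription factor complex PTF1, which holds PTF1A and RBPJL, together with BHLHA15 (MIST1) and NR5A2, maintains this program in the adult pancreas. In a bulk library more acinar cells and more acinar RNA per cell cannot be told apart.

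Total counts lay between 21633925 and 42391106 per mouse. Igf1r itself, counted over all its transcripts in all islet cells, was 53.6 ± 7.21 CPM (counts scaled to a common library size with TMM factors) in CTRL and 50.7 ± 5.0 in KD (SD, n = 4). Its log2 fold change was -0.08 ± 0.11 (SE; adjusted p = 0.988 by edgeR), so these libraries showed no clear drop. The paper reports reduced Igf1r mRNA in islets of βIgf1rKD mice, and why these libraries differ was not tested. The gene total does not read the floxed exon alone and was not used as a check of the labels. The labelled tissue carried its defining transcripts, since the 7 islet hormones summed to between 150450 and 222995 CPM in every mouse. When the groups were compared with edgeR (quasi-likelihood F-test, Benjamini-Hochberg), none of 15474 genes tested had an adjusted p under 0.05 and 637 had an unadjusted p under 0.05. DESeq2 gave 8 and limma-voom 1 at an adjusted p under 0.05. P-values measure the spread between these mice.

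The sequences of the trypsinogens are shown first, because their near identity decides how their counts can be read. All 6 lie on mouse chromosome 6 (GENCODE M21, GRCm38): Try4 at chr6:41302269-41305532, Try5 at chr6:41311233-41316841, Try10 at chr6:41354105-41357914, Prss3 at chr6:41373814-41377678, Prss1 at chr6:41458932-41463786 and Prss2 at chr6:41521787-41525079. The first 75 coding bases of each spliced transcript, from the start codon onward, are given with capitals where a base differs from Prss2.
Prss2: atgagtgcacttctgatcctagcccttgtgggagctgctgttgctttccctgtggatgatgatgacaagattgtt
Try4: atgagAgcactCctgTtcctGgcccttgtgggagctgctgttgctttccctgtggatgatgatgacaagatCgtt
Try5: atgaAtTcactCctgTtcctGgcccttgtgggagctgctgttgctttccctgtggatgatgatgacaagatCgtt
Try10: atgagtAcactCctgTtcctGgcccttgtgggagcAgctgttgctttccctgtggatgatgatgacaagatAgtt
Prss3: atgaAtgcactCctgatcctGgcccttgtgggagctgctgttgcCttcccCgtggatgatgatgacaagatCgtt
Prss1: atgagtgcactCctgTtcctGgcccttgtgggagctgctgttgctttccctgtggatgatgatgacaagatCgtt
Over these 75 bases the others differ from Prss2 at 4 bases (Prss1), 5 bases (Try4) or 6 bases (Try5, Try10 and Prss3), and every one of the 6 has 738 coding bases. Reads are assigned by short words of sequence, and the share of a gene's 31-base words that also occur in transcripts of other genes was 82.7% for Try4, 75.4% for Prss3, 69.3% for Prss1, 60.9% for Try5, 58.6% for Try10 and 22.5% for Prss2. Among the other members only Amy2b was also above 50%, at 60.4%, and 18 of the 37 shared none. The division of trypsinogen and amylase counts between paralogs is therefore uncertain, while their sum is less affected.

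Promoters are shown because the program is maintained by PTF1, whose sites pair an E-box bound by PTF1A with a second box bound by RBPJ or RBPJL. RefSeq starts (GRCm38.p6) were given for 29 of the 37 genes, 31 promoters in all, and the 250 bases before each start were searched on both strands for CACCTG, for TGGGAA and for TTTCCC, the last added after the promoters were seen. The last of these can overlap TGGGAA by 5 bases on the opposite strand. CACCTG was found in 19 of 31 member promoters (61.3%) against 17.2% of all 32851 promoters, TGGGAA in 17 (54.8%) against 21.59%, and TTTCCC in 7 (22.6%) against 21.9%. CACCTG together with either of the others was found in 9 (29.0%) against 5.96%. The 5 promoters with the fewest bases between both kinds of motif are shown over the 140 bases before the start, followed by Bhlha15, whose level moved least among the mice; the motifs are in capitals.
Cela1 (chr15:100687921-100688060, minus strand): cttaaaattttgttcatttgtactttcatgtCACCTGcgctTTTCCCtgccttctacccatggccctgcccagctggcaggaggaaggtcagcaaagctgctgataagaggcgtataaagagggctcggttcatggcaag
Prss1 (chr6:41458790-41458929, plus strand): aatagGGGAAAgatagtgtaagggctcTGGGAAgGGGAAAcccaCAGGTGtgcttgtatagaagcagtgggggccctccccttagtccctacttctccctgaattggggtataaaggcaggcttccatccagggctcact
Cel (chr2:28563404-28563543, minus strand): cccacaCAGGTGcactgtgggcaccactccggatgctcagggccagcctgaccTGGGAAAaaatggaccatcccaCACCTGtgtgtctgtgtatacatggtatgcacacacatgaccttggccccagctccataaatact
Rbpjl (chr2:164403054-164403193, plus strand): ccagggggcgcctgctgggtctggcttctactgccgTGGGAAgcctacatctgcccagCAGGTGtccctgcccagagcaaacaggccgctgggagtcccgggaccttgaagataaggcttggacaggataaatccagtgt
Klk1 (chr7:44225220-44225359, plus strand): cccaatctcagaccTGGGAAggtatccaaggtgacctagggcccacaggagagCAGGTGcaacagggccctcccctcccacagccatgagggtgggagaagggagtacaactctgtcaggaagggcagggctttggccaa
Bhlha15 (chr5:144190146-144190285, plus strand): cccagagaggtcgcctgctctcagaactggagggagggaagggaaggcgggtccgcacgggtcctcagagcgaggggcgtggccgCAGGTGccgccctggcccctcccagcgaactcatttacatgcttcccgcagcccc
In Cela1 and Prss1 4 bases separate the motifs, in Cel 15, in Rbpjl 16 and in Klk1 33. Bhlha15 holds CACCTG once in the bases shown, read on the opposite strand, and neither other motif. These matches are letters in a window and were not tested for binding.

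The acinar genes made up very different shares of the libraries. In CTRL they took 2.52% of all counts in M148, 4.15% in M151, 17.5% in M152 and 10.6% in M153. In KD they took 18.2% in M145, 5.12% in M146, 21.1% in M149 and 14.01% in M150. M148, M151 and M146 were low and the other 5 mice were high, each group held mice of both kinds, and the groups overlapped. The share was 8.69% ± 6.81 in CTRL and 14.6% ± 6.94 in KD (SD, n = 4), and its range was 8.35-fold over the 8 mice. Wilson 95% intervals, which cover counting error only, reached at most 0.0152 percentage points to either side, so that counting error is small beside the spread between mice.

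**Figure D1:**
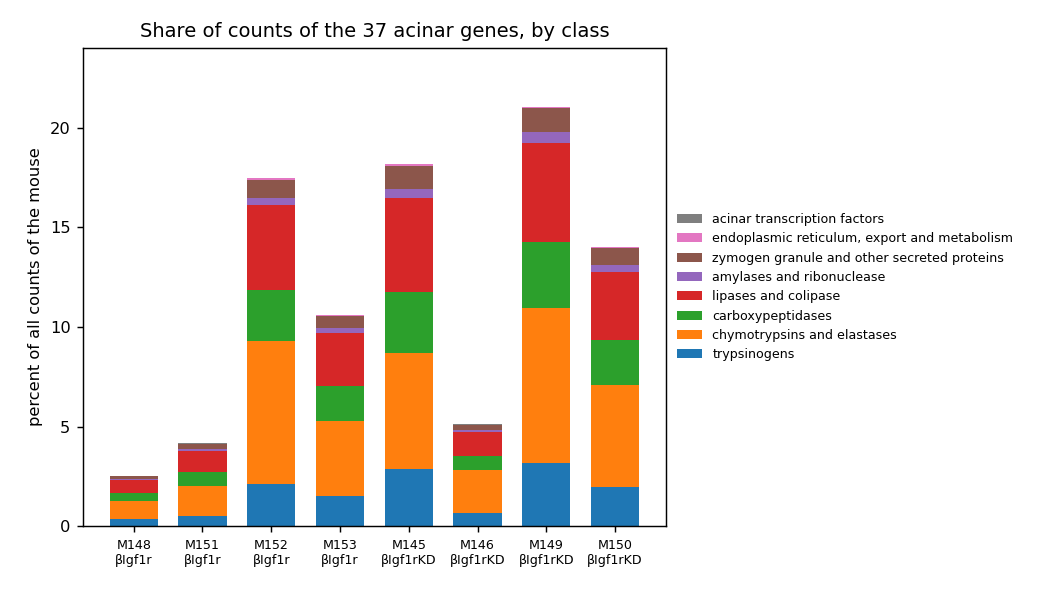
Stacked bars give the percent of each mouse's counts taken by the 37 acinar genes, split into 8 classes, for the 4 βIgf1r and the 4 βIgf1rKD mice (1 library each, no error bars). M148, M151 and M146 lie at 2.52%, 4.15% and 5.12%, and the other 5 mice between 10.6% and 21.1%.

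On the CPM scale, on which TMM factors set the libraries against each other by the bulk of their genes, the summed level was 20451 in M148, 34082 in M151, 193978 in M152 and 108834 in M153, and 226469 in M145, 43517 in M146, 252346 in M149 and 146466 in M150. The spread between mice was 12.3-fold on this scale. As log2 values the sum was 15.92 ± 1.49 in CTRL and 17.08 ± 1.16 in KD (SD, n = 4), a difference of 1.16 that is smaller than the pooled SD of 1.34. The ratio of the linear means was 1.87. In 35 of 37 genes the lowest 3 mice were M148, M151 and M146, the exceptions being Ptf1a and Bhlha15. M149 was highest in 18 genes, M145 in 17 and M153 in 2, namely Prss1 and Prss3.

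Of the 37 genes 35 had a higher fitted level in KD and 2, Prss1 and Prss3, a lower one, with a median log2 fold change of 0.96 against 0.01 over all genes tested, of which 52.3% were higher. Most of the 37 rose and fell together over the mice (median r of 0.987 of a gene with the sum of the others). The counts of genes in this paragraph are therefore not counts of independent observations. The log2 fold changes ran from -1.60 to 1.52 with a median standard error of 0.73, against 0.14 over all genes. 1 of 37 genes, Gatm, had an unadjusted p under 0.05, where 4.12% of all genes did. None had an adjusted p under 0.05 (edgeR; 0% of all genes), nor by DESeq2 or limma-voom, whose counts at an unadjusted p under 0.05 were 0 of 37 (4.53% of all genes) and 3 of 37 (3.65%). DESeq2 gave no p for Prss1, which is counted here as not called. In none of the 37 were all KD mice above or below all CTRL mice, where 2.22% of all genes had such groups. The counts depended on single mice. Without M152, the CTRL mouse with the most acinar RNA, 13 of the 37 had an unadjusted p under 0.05, where 7.09% of all genes did. Without M146, the KD mouse with the least, 12 did, where 6.12% of all genes did. Without M148, M151, M145, M149 or M150 none did, where between 2.45% and 5.44% of all genes did. The median log2 fold change was 1.60 without M152 and 0.64 without M148.

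**Figure D2:**
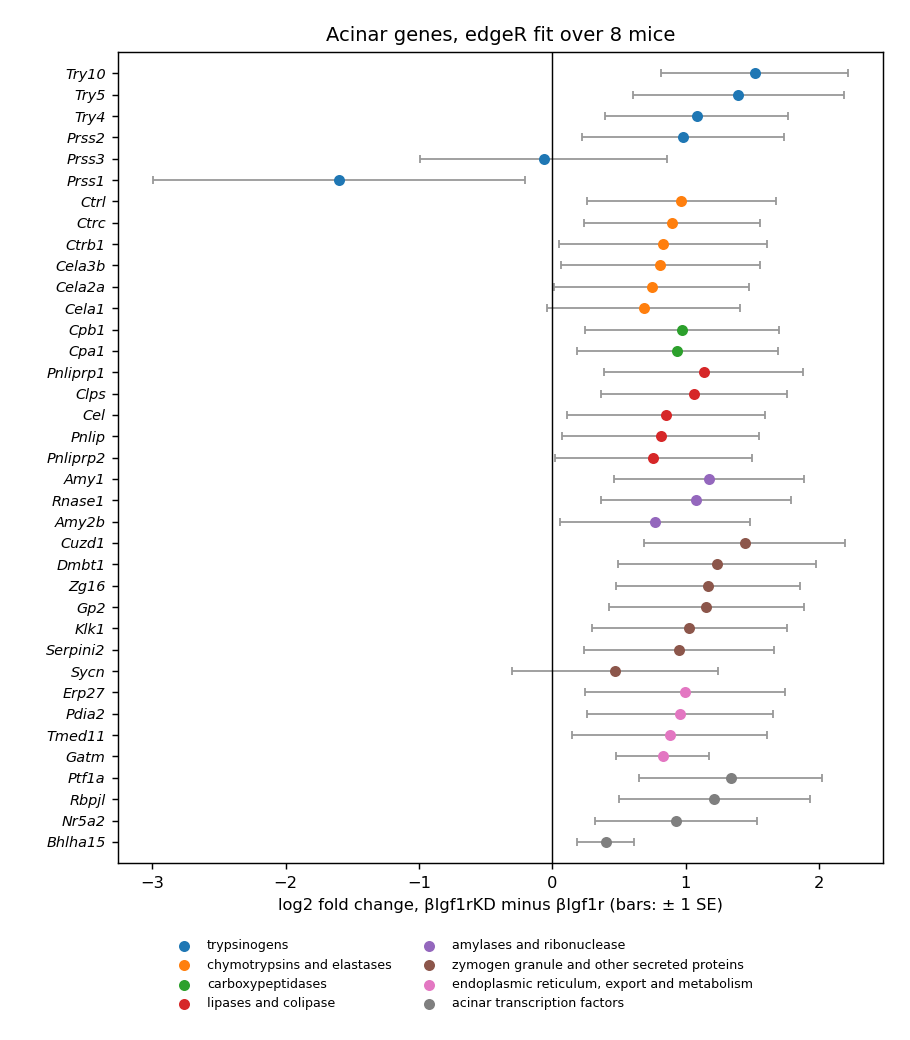
Points give the log2 fold change of each acinar gene, βIgf1rKD minus βIgf1r, from edgeR's fit over 8 mice, with bars of 1 standard error, coloured by class. Most points lie near the median of 0.96 with bars of about 0.73, and Prss1 at -1.60 and Prss3 at -0.06 stand to the left.

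Other cell types varied beside these genes, and their part in the differences was not tested. Of a list of 28 further exocrine genes 21 were tested, 18 were higher in KD and none had an unadjusted p under 0.05, and their sum ran from 18738 to 164399 CPM in CTRL and from 37500 to 242812 in KD. All 7 islet hormones were lower in KD, 1 at an unadjusted p under 0.05, with sums of 188825 to 222995 CPM in CTRL and 150450 to 202734 in KD. Among 20 islet endocrine genes 10 were higher and 10 lower. All 10 endothelial markers were lower in KD, 5 of them at an unadjusted p under 0.05, with sums of 516 to 644 CPM in CTRL and 466 to 510 in KD. Of 13 duct markers tested 10 were higher in KD and 3 lower, none at an unadjusted p under 0.05. Their list summed to 482 to 619 CPM in CTRL and to 533 to 885 in KD. Of 9 fibroblast and stellate markers 5 were higher and 4 lower, 1 of the latter at an unadjusted p under 0.05. Their sums were 200 to 227 CPM in CTRL and 112 to 367 in KD, and M149 was highest in both lists. All 9 macrophage markers had a higher fitted level in KD, 2 at an unadjusted p under 0.05, with sums of 122 to 156 CPM in CTRL. In KD the sums were 135 in M145 and 139 in M146, within the CTRL range, and 201 in M150 and 300 in M149. Lymphocyte markers summed to 10.3 to 65.4 CPM in CTRL, highest in M151, and to 12.9 to 18.0 in KD. Schwann cell markers summed to 12.6 to 15.9 and 9.40 to 13.8, and adipocyte markers to 7.44 to 13.3 and 6.83 to 12.7. Of 4 lymphocyte markers tested 1 was higher in KD and 3 lower. All 6 Schwann cell markers and the 1 adipocyte marker tested were lower, and no gene of these lists had an unadjusted p under 0.05. None of these lists held a gene with an adjusted p under 0.05 (edgeR). Over all genes tested, 4.12% had an unadjusted p under 0.05 and 52.3% were higher in KD.

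The levels of the genes were compared with each other per kilobase of their longest transcript, as means over the 8 mice. Ctrb1 was highest, at 16961 CPM per kilobase, followed by Cela2a at 13757, Prss2 at 9260, Cela1 at 8679 and Pnlip at 8558. The ranks down to Cpb1 at 3116 held zymogens, lipases, colipase and the granule protein Sycn. The lowest were Rbpjl at 6.07, Prss1 at 5.34, Ptf1a at 2.66 and Nr5a2 at 1.30. Neighbours in this order were closer together than the same gene was between mice, since the highest mouse exceeded the lowest 13.4-fold in the median gene, and no order among them was tested. With the mean transcript length in place of the longest, 8 of the 10 highest remained so, Cela2a stood above Ctrb1, Prss2 was at rank 6, and Ptf1a was lowest in place of Nr5a2.

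**Figure D3:**
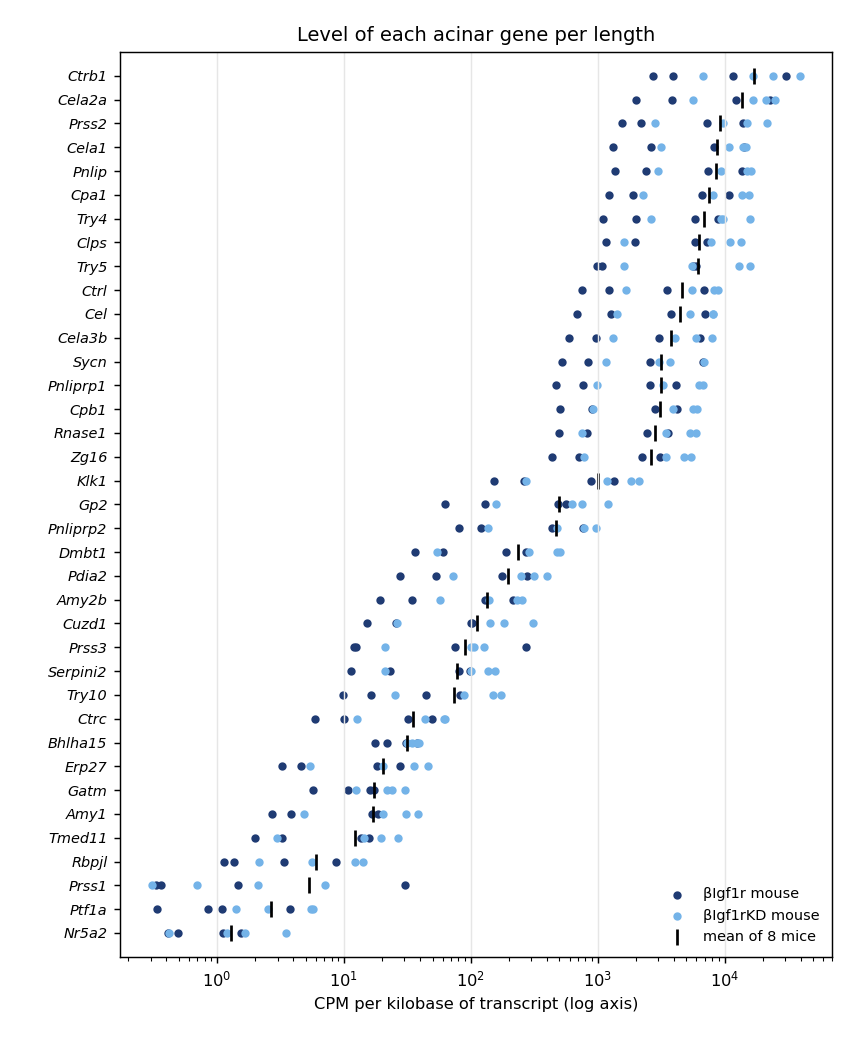
Each dot is 1 mouse and each bar the mean of 8 mice, in CPM per kilobase of the longest transcript on a log axis, with genes ordered by the mean. Ctrb1 is at the top at 16961 and Nr5a2 at the bottom at 1.30, and in nearly every row 3 mice stand apart on the low side.

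Trypsinogens are the inactive precursors of trypsin, the protease that activates the other zymogens in the gut. Prss2, the most abundant of them, was 1259 CPM in M148, 1802 in M151, 11303 in M152 and 5964 in M153, and 12324 in M145, 2309 in M146, 17484 in M149 and 7927 in M150. The groups overlapped, with means of 5082 ± 4649 in CTRL and 10011 ± 6451 in KD (SD, n = 4), and a log2 fold change of 0.98 ± 0.76 (SE; adjusted p = 0.987 by edgeR). Try4, Try5 and Try10 had log2 fold changes of 1.08, 1.39 and 1.52 on the same test, none with an adjusted p under 0.05. The summed trypsinogens took between 12.02% and 15.7% of the acinar counts in every mouse.

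Prss1 and Prss3, scarce members of the cluster, did not follow this order of mice. Prss1 was 0.266 CPM in M148, 0.291 in M151, 1.17 in M152 and 24.5 in M153, and 0.561 in M145, 0.25 in M146, 1.70 in M149 and 5.67 in M150. M153 stood far above the other CTRL mice and M150 above the other KD mice, on counts that ran from 7 to 516. The log2 fold change was -1.60 ± 1.39 (SE; adjusted p = 0.987 by edgeR), and it was 1.86 without M153. Prss3 was 9.90 CPM in M148, 10.2 in M151, 61.3 in M152 and 224 in M153, and 82.0 in M145, 17.3 in M146, 87.4 in M149 and 104 in M150. M153 was again highest, and the log2 fold change of -0.06 ± 0.93 (SE) became 1.42 without it.

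The neighbouring trypsinogen-like genes Gm5771 and Gm10334, outside the 37, showed the same pair of mice on top. Gm5771 was 77.9 CPM in M153 and 19.8 in M150 and at most 6.73 in the other mice, and Gm10334 was 71.3 and 13.98 and at most 9.58. These genes share 71.4% and 73.2% of their 31-base words with other genes, so that counts may be exchanged within the cluster. 1810009J06Rik, another gene of this kind, was 187 CPM in M149 and at most 24.6 in the other mice, and shares 86.4% of its words. Among the further exocrine genes on chromosome 6, the abundant 2210010C04Rik shares only 0.0473% of its words. It was highest in M149 at 15892.5 CPM and next highest in M145 at 14178, and had r = 0.993 with the summed level of the 37.

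**Figure D4:**
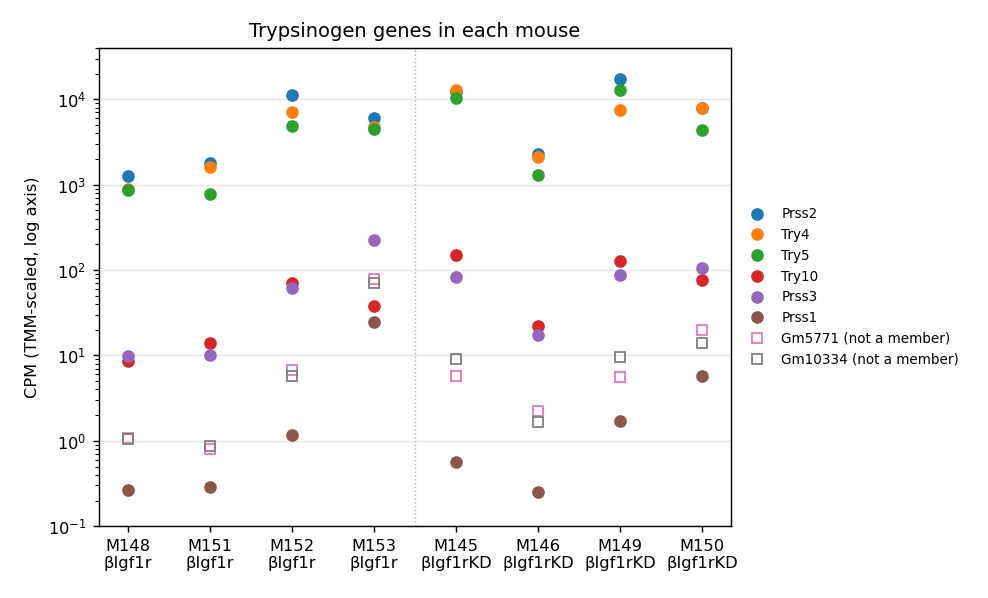
CPM on a log axis of the 6 trypsinogens of the list (filled circles) and of Gm5771 and Gm10334 (open squares) in each mouse, βIgf1r left of the dotted line and βIgf1rKD right of it. Prss2, Try4 and Try5 lie together between 787 and 17484 CPM, while Prss1, Gm5771 and Gm10334 are highest in M153 and next highest in M150.

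Chymotrypsins and elastases cut proteins at other residues and formed the largest class, with 32.0% to 41.8% of the acinar counts. Ctrb1, chymotrypsinogen B, is at chr8:111686519-111691010 on the minus strand. It was 2409 CPM in M148, 3419 in M151, 26846 in M152 and 10188 in M153, and 21226 in M145, 5895 in M146, 34432 in M149 and 14717 in M150. The CTRL mouse M152 was above 3 of the 4 KD mice. Means were 10716 ± 11294 in CTRL and 19067 ± 12016 in KD (SD, n = 4), with a log2 fold change of 0.83 ± 0.78 (SE; adjusted p = 0.987 by edgeR) that was 0.38 without M149 and 1.84 without M152. The 6 genes of the class had log2 fold changes of 0.69 (Cela1) to 0.97 (Ctrl, chymotrypsin-like protease), none with an adjusted p under 0.05.

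Carboxypeptidases trim peptides from their carboxyl end. Cpa1, at chr6:30639218-30645363 on the plus strand, was 1939 CPM in M148, 3031 in M151, 17189 in M152 and 10489 in M153, and 21530 in M145, 3598 in M146, 24486 in M149 and 12861 in M150. The mice fell in the same order as for Prss2, and the groups overlapped. The log2 fold change was 0.94 ± 0.75 (SE; adjusted p = 0.987 by edgeR), and that of Cpb1 was 0.97 ± 0.72.

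Lipases release fatty acids from dietary fat and took 23.3% to 26.1% of the acinar counts. Pnlip, pancreatic lipase, was 2028 CPM in M148, 3557 in M151, 20454 in M152 and 10911 in M153, and 24190 in M145, 4406 in M146, 22414 in M149 and 13844 in M150. Its log2 fold change was 0.81 ± 0.74 (SE; adjusted p = 0.987 by edgeR). Colipase (Clps), the cofactor of this enzyme, had a log2 fold change of 1.06, carboxyl ester lipase (Cel) 0.85, and the lipase-related Pnliprp1 and Pnliprp2 1.14 and 0.76. The class thus moved with the proteases from mouse to mouse, and none of its 5 genes had an adjusted p under 0.05.

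Rnase1, pancreatic ribonuclease, led the class of amylases and ribonuclease. It was 492 CPM in M148, 824 in M151, 3555 in M152 and 2413 in M153, and 5333 in M145, 747 in M146, 5856 in M149 and 3431 in M150, with a log2 fold change of 1.08 ± 0.71 (SE; adjusted p = 0.987 by edgeR). Here M151 lay above M146. Amylases cut starch, and the listed Amy1 and Amy2b had log2 fold changes of 1.18 and 0.77 at mean levels of 17.1 and 135 CPM per kilobase. Amy2b, at chr3:113147656-113156727, is an unprocessed pseudogene in GENCODE M21 and a protein-coding gene in RefSeq.

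Most amylase RNA lay in genes outside the list. Amy2a5 was 4458 CPM in M148 and 56504 in M145, the lowest and the highest mouse, and the 5 Amy2a genes took 2.05% to 17.9% of all counts. Amy2a2, Amy2a3 and Amy2a4 had identical counts in every mouse and share all their 31-base words, so they were not measured apart. With the Amy2a genes added, the acinar genes took 4.58% to 37.2% of the counts. The ratio of Amy2a1 to Amy2a5, which share most words of the former, was 0.194 in M152 and 0.160 in M146 and between 0.383 and 0.507 in the other 6 mice.

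Zymogen granule proteins pack or accompany the enzymes. Zg16, a granule lectin, was 315 CPM in M148, 516 in M151, 2223 in M152 and 1619 in M153, and 3925 in M145, 565 in M146, 3478 in M149 and 2510 in M150. Its log2 fold change was 1.17 ± 0.69 (SE; adjusted p = 0.987 by edgeR). Within the class the log2 fold changes ran from 0.47 for Sycn (syncollin, a granule membrane protein) to 1.44 for Cuzd1 (a CUB and zona pellucida domain protein), with Gp2 (the main granule membrane glycoprotein) at 1.15, Dmbt1 (a mucin-like scavenger receptor) at 1.24, Klk1 (tissue kallikrein) at 1.03 and Serpini2 (a serine protease inhibitor) at 0.95. Among the genes of this class, the log2 ratio to the other 36 genes varied most over the mice for Cuzd1 (SD 0.43), followed by Gp2 and Sycn (0.32 each).

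The endoplasmic reticulum class folds and exports these proteins. Pdia2, a protein disulfide isomerase of the pancreas, was 48.0 CPM in M148, 92.3 in M151, 481 in M152 and 303 in M153, and 690 in M145, 125 in M146, 547 in M149 and 431 in M150, with a log2 fold change of 0.96 ± 0.70 (SE; adjusted p = 0.987 by edgeR). Erp27, its relative, and Tmed11, a cargo receptor family member, had log2 fold changes of 0.99 and 0.88. In all 3 the mice M148, M151 and M146 were lowest.

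Gatm, which makes the precursor of creatine and is at chr2:122594467-122611303 on the minus strand, varied less between mice than the enzymes. It was 13.7 CPM in M148, 25.7 in M151, 38.6 in M152 and 41.6 in M153, and 71.9 in M145, 29.96 in M146, 57.7 in M149 and 52.1 in M150. All KD mice other than M146 lay above all CTRL mice. The means were 29.9 ± 12.8 in CTRL and 52.9 ± 17.4 in KD (SD, n = 4), with a log2 fold change of 0.83 ± 0.35 (SE; edgeR, adjusted p = 0.987, and 0.114 by the exact two-sided permutation test over 70 assignments, whose smallest p is 0.0286). Its unadjusted edgeR p of 0.0400 was above 0.05 with DESeq2 and without any of M148, M151, M145, M149 or M150. The highest mouse exceeded the lowest 5.24-fold, less than for the enzymes.

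The acinar transcription factors were scarce, with the exception of Bhlha15. Rbpjl, a subunit of PTF1, was 5.62 CPM in M148, 6.73 in M151, 42.8 in M152 and 16.6 in M153, and 59.7 in M145, 10.5 in M146, 68.9 in M149 and 27.5 in M150, with a log2 fold change of 1.22 ± 0.71 (SE; adjusted p = 0.987 by edgeR). Ptf1a, its partner, was 0.506 CPM in M148, 1.27 in M151, 5.62 in M152 and 1.66 in M153, and 8.37 in M145, 2.14 in M146, 8.66 in M149 and 3.80 in M150. It rested on 19 to 199 counts, and its log2 fold change was 1.34 ± 0.68 (SE; adjusted p = 0.987 by edgeR). Rbpjl had the mice in the order of Prss2, while Ptf1a was lower in M153 than in M146.

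Nr5a2, a nuclear receptor, was 1.94 CPM in M148, 2.33 in M151, 7.37 in M152 and 5.31 in M153, and 7.91 in M145, 1.999 in M146, 16.7 in M149 and 5.67 in M150, with a log2 fold change of 0.93 ± 0.61 (SE; adjusted p = 0.987 by edgeR). M149 stood above the rest, and without it the log2 fold change was 0.30. Bhlha15, which enlarges the secretory apparatus, was 76.9 CPM in M148, 61.3 in M151, 132 in M152 and 108 in M153, and 135 in M145, 133 in M146, 110 in M149 and 120 in M150. Its highest mouse exceeded its lowest only 2.21-fold, the least of the 37 genes, and M146, poor in enzymes, was next to the highest. The means were 94.6 ± 31.8 in CTRL and 125 ± 11.6 in KD (SD, n = 4), with a log2 fold change of 0.40 ± 0.21 (SE; adjusted p = 0.987 by edgeR).

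Across mice most of the genes moved as a block. For each gene the log2 CPM was compared with the log2 summed CPM of the other 36 over the 8 mice, points that share the library and its scaling factor, and the values are a description. Pearson's r was at least 0.95 for 31 of the 37 genes, with a median of 0.987 (Spearman's rho, median 0.976), and slopes among these 31 lay between 0.95 and 1.09, so that a doubling of the others came with about a doubling of the gene. Cpa1 had r = 0.998 and a slope of 1.02. Without M148 and M151, the mice farthest from the median, the median r was 0.976.

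The 6 genes under 0.95 were Prss1 (r = 0.495), Bhlha15 (0.696), Prss3 (0.835), Gatm (0.927), Ptf1a (0.935) and Nr5a2 (0.941). The slope was 0.21 for Bhlha15 and 0.51 for Gatm, against 0.74 for Nr5a2 and 0.94 for Ptf1a. Without M148 and M151, r was -0.157 for Bhlha15, 0.152 for Prss1 and 0.554 for Prss3, so that these relations rest on those mice, and it was 0.808 for Gatm, 0.828 for Ptf1a and 0.941 for Nr5a2. Single mice also bore on these values, since r was 0.959 for Prss3 without M153 and 0.885 for Bhlha15 without M146. As background, Bhlha15 is also known from other secretory cells and Gatm from kidney and liver, and whether this bears on their slopes was not tested.

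**Figure D5:**
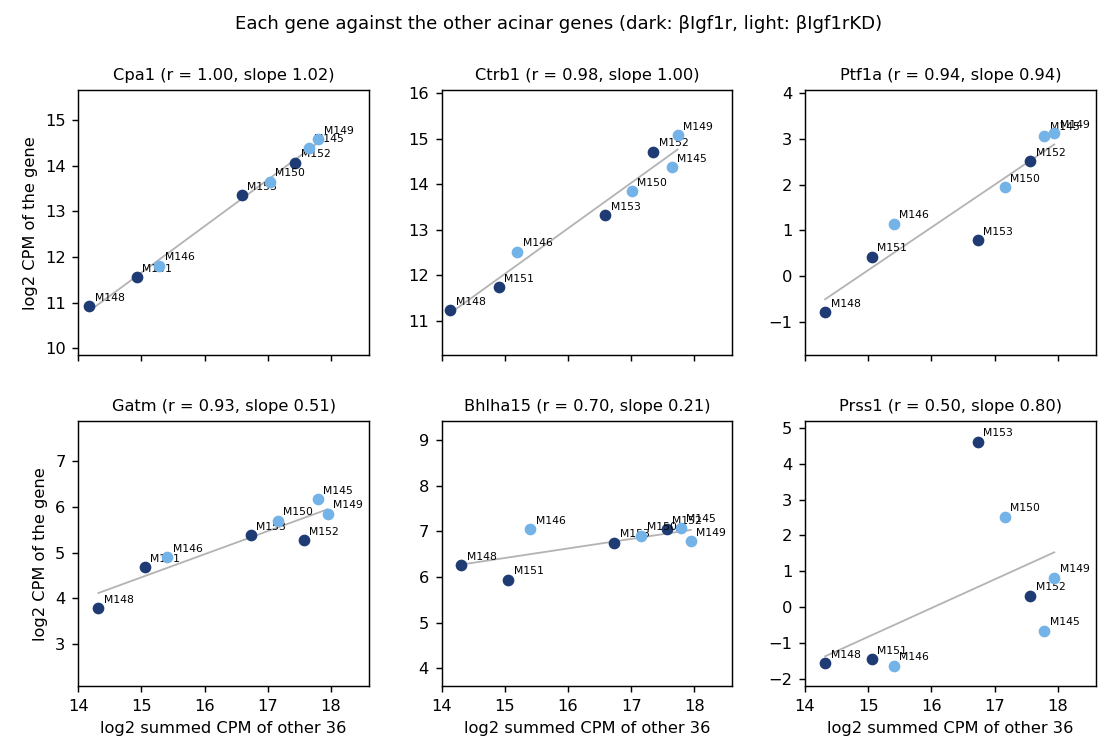
Each panel plots the log2 CPM of 1 gene against the log2 summed CPM of the other 36 acinar genes in the 8 mice (dark, βIgf1r; light, βIgf1rKD), with a least-squares line. Cpa1 and Ctrb1 follow the line with slopes of 1.02 and 0.997, Gatm and Bhlha15 are flatter at 0.51 and 0.21, and Prss1 has M153 far above its line.

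The genes were also set against the other acinar genes of the same library. For a gene with a slope near 1 this ratio does not move with the amount of acinar RNA, while for Bhlha15 and Gatm, with slopes of 0.21 and 0.51, it falls where the others are higher. For 31 of 37 genes the log2 ratio of the gene to the other 36 had an SD under 0.5 over all 8 mice. Its difference, KD minus CTRL, was 0.02 for Prss2, -0.03 for Cpa1, -0.07 for Pnlip and 0.05 for Ctrb1. It was 0.50 for Try10 and for Ptf1a, 0.21 for Rbpjl, -0.28 for Gatm, -0.35 for Prss3, -0.39 for Nr5a2, -0.70 for Bhlha15 and -1.34 for Prss1, and none of these differences was tested. The summed level of the further exocrine genes was mostly Amy2a RNA. In M148 the Amy2a genes took 2.05% of all counts and the whole list 2.31%, and in M145 17.9% and 19.5%. When the summed level of the further exocrine genes was added to edgeR's fit over all genes, the median log2 fold change of the 37 was 0.05 in place of 0.96. That summed level had r = 0.994 with the sum of the 37, so the fit removes by its construction what they share. In this fit 23 were higher and 14 lower, where 53.2% of all genes were higher. Gatm (0.35 ± 0.14) and Try10 (0.55 ± 0.13, SE) then had an unadjusted p under 0.05, where 2.66% of all genes did, and no member had an adjusted p under 0.05. With the log2 CPM of Xist as a covariate, which stands for the mix of sexes, the median was 1.56 and 6 of the 37 had an unadjusted p under 0.05, where 7.39% of all genes did.

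Among the genes outside the list whose log2 CPM was most like the summed level of the 37 over the 8 mice were Gjb1 (a gap junction connexin, r = 0.999), Aqp12 (an aquaporin, 0.998), Amy2a5 (0.996), Tff2 (a trefoil peptide, 0.996), Amy2a2 with Amy2a3 and Amy2a4 (0.995), and Cabp2 (a calcium-binding protein, 0.995) with an unnamed gene of identical counts. Aqp12, Tff2 and the Amy2a genes were on the list of further exocrine genes. Gjb1 ran from 1.04 CPM in M148 to 10.7 in M149, and Cabp2 from 1.17 to 16.8 in the same mice. Of 13692 genes with a mean of at least 1 CPM, 97 had r of at least 0.95 (0.708%). Not all of the further exocrine genes followed. Rnase4 had r = 0.0738 and values between 184 and 343 CPM, and Bcat1 had r = -0.253. For Gm5771, Fam129a, 1810009J06Rik and Gm10334 r lay between 0.615 and 0.705.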

How the data were processed

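Groups come from the sample labels, and each column of the count table was matched to a mouse by the number in its title. The deposited values are estimated counts per gene from kallisto, after fastp, on GRCm38, per the labels of the submitters' processing notes. Versions and the annotation release are not given in the sources used here. Per the paper, islets of single mice were kept apart and not pooled, and the purified RNA was sent to DNA Link for sequencing.

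Estimated counts were rounded to whole numbers. The edgeR 4.0.16 filter (minimum count 10 in at least 4 mice, total 15) kept 15474 genes, TMM factors were computed, and groups were compared by the quasi-likelihood test over all genes in R 4.3.3 with Benjamini-Hochberg adjustment. CPM uses TMM-scaled libraries and log2 CPM a prior count of 2. The fit was tested on simulated counts. The genes and lists were chosen with earlier results of these data known. Genes given in full are the most abundant of each class, those with an unadjusted p under 0.05, the 4 transcription factors and the 3 with the lowest r to the others. The genes whose pattern is most like the summed level are the 10 with the highest r among genes tested with a mean of at least 1 CPM, of which 1 is not reported here. Shared 31-base words were counted over GENCODE M21 transcripts.

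Alternatives were RLE factors, DESeq2 1.42.0, limma-voom (limma 3.58.1), no filter, at least 10 counts in every mouse, scaling without exocrine genes, covariates for further exocrine genes or Xist, other sums, and each mouse left out. Leaving out M153 and M150 together, and adding the Amy2a genes to the sum, were chosen after seeing the data. The depth per mouse, 21633925 to 42391106 counts, leaves counting error small for the enzymes and large for Prss1.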

Additional observations from a re-analysis of the deposited data

Results flagged for a closer look

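In Prss3, the KD mouse M146 had a log2 CPM of 4.12, while the other KD mice lay between 6.36 and 6.71. Its gap to the nearest of them was 0.865 of the range of the group. Prss3 shares 75.4% of its 31-base words with transcripts of other genes, and M146 was also the KD mouse with the least of the summed acinar genes. Of 76 sets of 4 mice examined, 1 met this criterion, where chance gives about 1 in 20, or 3.8.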

How the results depend on the processing

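No paired analysis was possible because no mouse number occurs in both groups. No member had an adjusted p under 0.05 under any alternative run. The count of members at an unadjusted p under 0.05, 1 in the fit reported, was 0 with DESeq2 (4.53% of all genes), 3 with limma-voom (3.65%), 4 with no filter (3.96%), 2 with the further exocrine genes (2.66%) and 6 with Xist as covariate (7.39%), and 0 to 13 when a mouse was left out (2.45% to 7.09%). The median log2 fold change was positive in every alternative run, between 0.64 and 1.60 with a mouse left out, and 0.05 with the further exocrine genes as covariate. The log2 difference of the summed level was 0.62 to 1.71 with a mouse left out and 0.90 as a ratio of linear means. The log2 fold change of Prss1 turned positive with limma-voom (0.32), with Xist as covariate (0.13) and without M153 and M150 (0.52), and ran from -2.96 to 1.86 with a mouse left out. That of Prss3 did so with limma-voom (0.86), Xist (1.26) and without M153 and M150 (1.18), and ran from -0.44 to 1.42 with a mouse left out, positive without M153 or M146. With the further exocrine genes as covariate 12 members turned negative, to between -0.22 and -0.00473, among them Cpa1 (-0.0149) and Pnlip (-0.0336). That fit removes by its construction what the members share with those genes; the cause of the other changes was not tested. Depth limits Prss1, Ptf1a, Nr5a2 and Tmed11, with fewer than 100 counts in the poorest mouse.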
